A study of Mus musculus with 15 samples.

Results

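XKA-H liver was compared with KKAy model liver, which sets treated against untreated diabetic mice of one strain. The comparison used 10 arrays of the 15 in the study, with 5 mice in each group and 1 array per mouse. Xiao-Ke-An (XKA) is a Chinese herbal mixture prescribed for type 2 diabetes. Both groups were male KKAy mice, a KK strain that carries the yellow agouti allele and becomes obese, insulin resistant and hyperglycemic. They were 10 weeks old when treatment began, ate a high-fat diet and were gavaged once daily for 32 days. The XKA-H group received XKA at 1.5 g/kg and the KKAy model group received distilled water, so both groups shared the strain, the sex, the diet and the gavage. Mice were randomised to groups on the basis of fasting glucose. The methods give both a fed and a fasting state around killing, and which of them held for these livers is not settled. Other arrays came from C57BL/6J mice on chow, and they entered here through the shared estimate of spread and as a reference level. The labels do not say whether mice of different groups shared cages or days.

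Expression was read as the intensity of each probe set on an Affymetrix mouse genome array. The deposited array medians lay between 127.2 and 162.2 in the KKAy model group and between 136.4 and 161.3 in the XKA-H group, and every array was scaled to a median of 1000, so a signal below 1000 is below the median probe set. Each gene was read from its brightest probe set, and "log2 change" means XKA-H minus KKAy model. A gene is said to have risen or fallen only when its limma adjusted p was under 0.05 over all 18193 genes. Hepatocyte genes were bright on all 10 arrays, with Alb, the serum albumin gene, between 459089 and 831892. KKAy model replicate 3 and XKA-H replicate 1 stood apart from their groups in acute phase genes, with list means 0.79 and 0.59 above the KKAy model mean on the log2 scale, and counts without both arrays are given below.

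The liver makes, elongates, stores and exports fatty acids, and sterols and fatty acids feed back on these steps through the SREBP transcription factors and the INSIG proteins that hold them in the endoplasmic reticulum. In obese diabetic mice the liver also takes up fatty acids from the blood and stores them as triglyceride. The same cells build NAD, purines and glycine-derived one-carbon units in the cytosol and mitochondria.

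Of the 18193 genes, 32 passed the test, which is 0.176% of those tested. There were 12 higher genes (0.066%) and 20 lower genes (0.11%). By p, the leading lower genes were Elovl3, a fatty acid elongase, Stmn1, a microtubule regulator, Chic1, a membrane protein, and Insig2, a brake on SREBP processing. The leading higher genes were Pabpn1, a poly(A)-binding protein, Nmrk1, a kinase of NAD synthesis, Rab5c, an endosomal GTPase, and Lrp4, a relative of the LDL receptor. There were 1 or 2 called members in each of 12 of the 55 gene lists and none in the other 43. Called genes such as Stmn1, Chic1 and Lrp4 were in no list. The lists were chosen with earlier results of these data known, so these counts do not show how the called genes spread over roles. The median log2 change was 1.14 among the higher genes and -1.07 among the lower genes, against -0.06 over all genes tested. The groups did not overlap in 30 of the 32 called genes. Over all genes this was so for 1.42% (0.429% higher and 0.995% lower), but called genes are picked for such separation, so the count is a description. In 31 of the 32, both group means were above 1000.

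**Figure D1:**
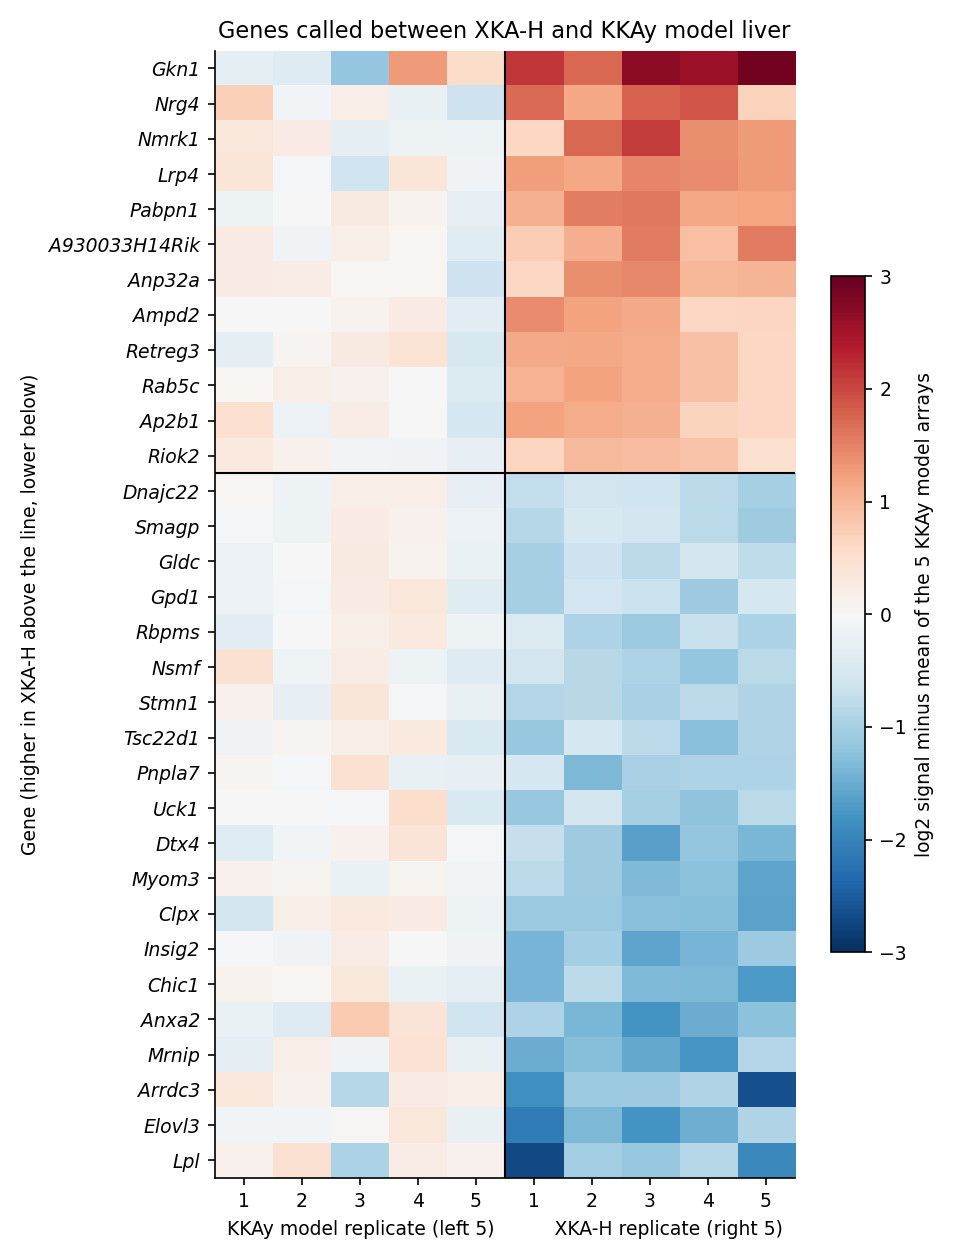
Heat map of the 32 called genes (rows) on the 5 KKAy model and 5 XKA-H arrays (columns), coloured by log2 signal minus the mean of the KKAy model arrays. The 12 higher genes stand above the line and the 20 lower genes below it, and KKAy model replicate 3 is the low untreated array for both Lpl (21845) and Arrdc3 (28165).

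**Figure D2:**
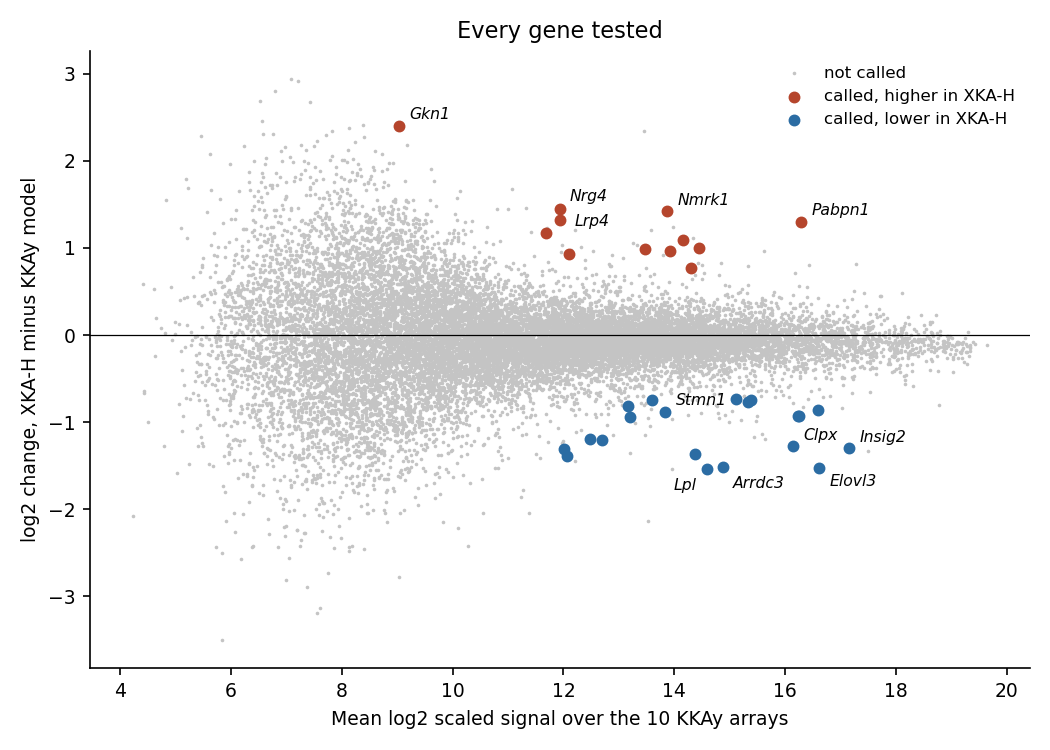
Log2 change of each of the 18193 genes (vertical axis) against its mean log2 scaled signal over the 10 KKAy arrays (horizontal axis). Red and blue points are the 12 higher and 20 lower called genes, and all but Gkn1 lie to the right of the wide scatter of dim genes.

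Of the called genes, 9 kept an adjusted p under 0.05 whichever single KKAy array was left out. These were Pabpn1, Nmrk1, Rab5c and Lrp4 among the higher genes and Elovl3, Stmn1, Chic1, Insig2 and Pnpla7 among the lower genes. Another 19 of the 32 kept it in 5 or fewer of the 10 runs.

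Promoters of 3 of the higher genes with 1 listed start, Pabpn1, Nmrk1 and Rab5c, are shown because these genes led the higher side. They are RefSeq sequences of the reference strain on GRCm38.p6, each 300 bases long and spanning the start, written 5′ to 3′ along the gene. Capitals mark TGACG, the core of the cAMP response element, and CCAAT, the box bound by NF-Y, on either strand, so CGTCA and ATTGG are the same motifs read backwards.

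Pabpn1 (chr14:54893893-54894192, plus strand): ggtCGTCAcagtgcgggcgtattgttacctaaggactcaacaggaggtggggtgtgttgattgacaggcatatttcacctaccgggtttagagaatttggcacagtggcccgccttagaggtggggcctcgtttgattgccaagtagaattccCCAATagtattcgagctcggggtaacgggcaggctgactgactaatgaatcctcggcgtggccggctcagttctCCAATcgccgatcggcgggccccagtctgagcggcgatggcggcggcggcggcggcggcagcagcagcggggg
Nmrk1 (chr19:18631766-18632065, plus strand): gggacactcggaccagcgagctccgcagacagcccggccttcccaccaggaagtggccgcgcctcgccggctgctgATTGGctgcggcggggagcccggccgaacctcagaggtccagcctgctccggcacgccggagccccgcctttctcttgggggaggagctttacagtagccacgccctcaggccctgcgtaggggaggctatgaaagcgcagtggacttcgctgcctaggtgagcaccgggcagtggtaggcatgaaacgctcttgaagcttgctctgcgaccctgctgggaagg
Rab5c (chr11:100738166-100738465, minus strand): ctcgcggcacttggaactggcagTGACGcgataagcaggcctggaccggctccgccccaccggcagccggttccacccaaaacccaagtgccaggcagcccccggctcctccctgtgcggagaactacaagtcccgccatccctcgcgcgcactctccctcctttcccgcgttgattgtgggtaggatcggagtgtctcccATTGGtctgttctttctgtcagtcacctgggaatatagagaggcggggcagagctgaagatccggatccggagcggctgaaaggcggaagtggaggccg

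All 3 windows hold CCAAT, and those of Pabpn1 and Rab5c also hold TGACG. Of the 32 called genes, 23 had a promoter in the table. CCAAT stood in 13 of these 23, against 41.1% of the 27025 genes with a promoter. TGACG stood in 12 of the 23, against 23.0%, and split evenly between higher and lower genes with 6 each. The E-box CACGTG was in 2 of the 23 (Pnpla7 and Tsc22d1), against 8.09%, and the nuclear receptor core AGGTCA was in 1 (Nrg4), against 18.1%. These shares are over all genes with a promoter, not over the genes tested or the bright genes among them. A gene with several starts was counted once if any window held the letters, matches of different motifs may share bases at their ends, and a match is not evidence of binding.

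Among genes of fatty acid supply, Elovl3, an enzyme that elongates saturated and monounsaturated fatty acids, fell most clearly. Its scaled signal on the KKAy model arrays was 160661, 160544, 172824, 211976 and 144966. On the XKA-H arrays it was 39677, 66004, 48818, 61236 and 90218. Every treated mouse was below every untreated mouse, and the highest treated value was XKA-H replicate 5. The means were 170194 ± 25363 and 61191 ± 19247 (SD, n = 5 each), a 2.78-fold difference, with a log2 change of -1.52 ± 0.19 (SE) and a limma adjusted p of 0.0015. The C57BL/6J mean was 101643, between the 2 KKAy groups. Elovl5, which elongates polyunsaturated fatty acids, had a log2 change of -0.52 without passing (adjusted p = 0.212). Of the 19 measured elongation and desaturation genes, 1 fell (0.11% over all genes). At an unadjusted p under 0.05, 1 was higher and 5 lower, against 2.77% higher and 5.84% lower over all genes. Their median log2 change was -0.15.

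Insig2, which retains the SREBP escort protein SCAP in the endoplasmic reticulum, was the only called gene of the SREBP and LDL receptor list. Its signal was 220158, 212599, 267464, 230240 and 211585 in the KKAy model group. In the XKA-H group it was 86667, 112830, 75634, 86483 and 107107. The gap between the groups was wider than the spread of values within either of them. The fall was 2.44-fold (log2 change -1.30 ± 0.19, adjusted p = 0.00482). All 3 Insig2 probe sets passed when each probe set was tested, with log2 changes of -1.18, -1.30 and -1.41. Of the 17 measured cholesterol synthesis genes, none was called, with a median log2 change of 0.07. Fdft1, squalene synthase, and Hmgcs1, which makes HMG-CoA, pointed in opposite directions with log2 changes of 0.56 and -0.50 (adjusted p = 0.482 and 0.176), or 0.15 and -0.29 with probe sets averaged. No de novo lipogenesis gene of 15 was called either (0.176% over all genes).

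Gpd1, the cytosolic glycerol-3-phosphate dehydrogenase that supplies the triglyceride backbone, had signals of 47654, 51668, 63270, 67861 and 41771 in the KKAy model group. In the XKA-H group they were 26907, 36073, 34535, 25142 and 37028. The groups did not overlap, and the mean was 1.70-fold lower after XKA (log2 change -0.76 ± 0.14, adjusted p = 0.0297). This rests on the brightest of 4 probe sets, and the other 3 had log2 changes of -0.06, -0.03 and -0.45 with unadjusted p of 0.849, 0.85 and 0.547. Primer pairs are printed for the 3 genes that the study chose for PCR. For these genes the study reported PCR patterns similar to those of its arrays. The mitochondrial counterpart Gpd2 (PCR primers gaaggggactattcttgtgggt and ggatgtcaaattcgggtgtgt) ran from 21901 to 28372 untreated and from 13354 to 19195 treated. These ranges did not overlap either, with a log2 change of -0.55 that did not pass (adjusted p = 0.0649). Among the acyltransferases that follow, Agpat1 and Agpat2 pointed apart at 0.67 and -0.62 (adjusted p = 0.276 and 0.206).

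Lpl, the lipase that releases fatty acids from circulating triglyceride, had the largest log2 change among the 20 lower genes but also an overlap. Untreated mice read 46341, 57694, 21845, 49316 and 46080, and treated mice read 6402, 20495, 19127, 23319 and 11027. KKAy model replicate 3 lay below XKA-H replicate 4. The mean was 2.75-fold lower (log2 change -1.54 ± 0.29, adjusted p = 0.0297), and the exact permutation test over the 10 mice gave p = 0.0159, where 0.00794 is the smallest it can give. The second Lpl probe set went the same way at -1.18 (unadjusted p = 0.00137). Without the 2 arrays that stood apart the log2 change was -1.48 (adjusted p = 0.00147). Those arrays held the lowest untreated and the lowest treated Lpl value, so the smaller p is not support. Lpl passed in 4 of the 10 runs that each left out 1 array, with an adjusted p of up to 0.113. Pnpla7, a lysophospholipase of the endoplasmic reticulum and lipid droplets, fell 1.91-fold, from a range of 90764 to 148439 to one of 42780 to 76846 (log2 change -0.93 ± 0.15, adjusted p = 0.0129).

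Anxa2, an annexin that binds membranes and is among PPARG targets, fell on its brightest probe set, from 22472 to 58298 in untreated mice to 9756 to 17881 in treated mice (log2 change -1.37, adjusted p = 0.0183). Its other 2 probe sets gave 0.06 and 1.42, the second of them dim with group means of 60.3 and 177.3, and the mean of all 3 had a log2 change of 0.04. Of the 19 measured lipid droplet and PPARG genes, 5 were lower and 0 higher at an unadjusted p under 0.05 (5.84% and 2.77% over all genes), with a median log2 change of -0.28. Cd36, the fatty acid transporter, ran from 60396 to 87587 untreated and from 33205 to 70649 treated, so the groups overlapped (log2 change -0.71, adjusted p = 0.189). Of 29 PPARA target genes none was called (0.176% over all genes). The largest log2 change among them was that of Acot3, a peroxisomal acyl-CoA thioesterase, at 2.34 (adjusted p = 0.0808). Its untreated signals ran from 1801 to 10194 and its treated signals from 7723 to 57855. XKA-H replicate 1 was the low treated mouse. Pdk4, which restrains pyruvate oxidation, had non-overlapping groups and a log2 change of -0.79 (adjusted p = 0.296). Apoc2 and Apoa4, apolipoproteins of triglyceride-rich particles, had log2 changes of -0.56 and -0.59, both with adjusted p = 0.153.

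In the mitochondrion, Clpx, the unfoldase subunit of the ClpXP protease, fell from 76101, 126733, 136722, 133204 and 100416 to 51605, 51983, 47148, 46336 and 36613. The treated mice were close together and all below the untreated mice, a 2.45-fold difference in means (log2 change -1.27 ± 0.23, adjusted p = 0.027). A second Clpx probe set, much dimmer at group means of 907.9 and 1798, went the other way at 0.91 (unadjusted p = 0.00982). Of the 20 measured mitochondrial protease and chaperone genes, Clpx was the only called one, and 1 was higher and 4 lower at an unadjusted p under 0.05 (2.77% and 5.84% over all genes). Gldc, the decarboxylase of the glycine cleavage system, fell 1.68-fold from 48730 to 67011 down to 27688 to 38157 (log2 change -0.75, adjusted p = 0.042). It was the only called gene of 34 in the urea cycle and amino acid list, and it passed in 1 of the 10 runs that each left out 1 array. No respiratory chain gene of 39 and no citrate cycle gene of 31 was called (0.176% over all genes).

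On the higher side, Nmrk1, the kinase that turns nicotinamide riboside into nicotinamide mononucleotide on the way to NAD, had signals of 11591, 10812, 7520, 8288 and 8165 in untreated mice. Treated mice read 14144, 30125, 39102, 23986 and 22185. XKA-H replicate 1 lay just above the untreated range and the other 4 lay far above it. The rise was 2.79-fold (log2 change 1.42 ± 0.21, adjusted p = 0.00482), and the C57BL/6J mean was 8796. A second Nmrk1 probe set passed at 1.51 and a dim further one gave 0.47. Nmrk1 was the only called gene of 25 in NAD synthesis (0.176% over all genes). At an unadjusted p under 0.05, 3 of the 25 were higher and 3 lower (2.77% and 5.84% over all genes). Nampt, which salvages nicotinamide, pointed up at 0.57 (adjusted p = 0.172), while Qprt, of the route from tryptophan, pointed down at -0.58 (adjusted p = 0.211). Slc22a7, an organic anion transporter listed for NAD precursors, had non-overlapping groups, with 63134 to 118506 untreated and 27769 to 43585 treated, and a log2 change of -1.19 that did not pass (adjusted p = 0.147).

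Ampd2, which deaminates AMP to IMP, read 15506, 15612, 17048, 18567 and 12658 untreated and 42407, 36423, 34591, 24040 and 24436 treated. All treated values exceeded all untreated ones, 2.04-fold on the means (SE of the log2 change 0.17, adjusted p = 0.0129). The second Ampd2 probe set had a log2 change of -0.05. Uck1, which phosphorylates uridine and cytidine, fell 1.94-fold from 9573 to 18731 down to 5622 to 8981 (log2 change -0.94, adjusted p = 0.0297).

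Pabpn1, the nuclear protein that coats poly(A) tails, had the smallest p of all genes. It read 45996, 51609, 61870, 55323 and 42801 in untreated mice. It read 106366, 147324, 153287, 113820 and 115851 in treated mice. The lowest treated value was well above the highest untreated one, and the rise was 2.47-fold (log2 change 1.30 ± 0.16, adjusted p = 0.0015). The 4 Pabpn1 probe sets all pointed up, but unequally, since the other 3 gave 0.10, 0.58 and 0.24 with unadjusted p of 0.461, 0.00306 and 0.106. Of 25 genes of polyadenylation and 3-prime end processing only Pabpn1 was called (0.176% over all genes), and the list's median was -0.01. Riok2, a kinase needed to mature the small ribosomal subunit, rose 1.71-fold from 13053 to 19008 up to 21526 to 30077 (log2 change 0.77, adjusted p = 0.0297). Of its 3 other probe sets 2 gave 0.66 and 0.95, with unadjusted p of 0.000468 and 6.76e-05, and the dimmest gave -0.10. Anp32a, an acidic nuclear phosphoprotein, rose 2.14-fold from a range of 8213 to 14939 to one of 19453 to 34346 (log2 change 1.10, adjusted p = 0.0297), while its other 2 probe sets gave -0.13 and 0.47. Rbpms, an RNA-binding protein, fell 1.76-fold, and all 3 of its other probe sets were lower as well, at -0.44, -0.75 and -0.46.

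Both called genes of the endocytosis list rose, 2 of 21 measured, against 0.066% of all genes called higher. The lists were chosen with earlier results of these data known, so this count is a description. Rab5c, a small GTPase of early endosomes, read 11665, 12578, 12224, 11314 and 8430 untreated and 22759, 25520, 24075, 20578 and 17112 treated. The groups were narrow and apart, 1.96-fold on the means (log2 change 0.97 ± 0.15, adjusted p = 0.00656). Ap2b1, the beta subunit of the clathrin adaptor AP-2, rose 1.89-fold from 2229 to 4429 up to 4885 to 7398 (log2 change 0.93, adjusted p = 0.0429), and its other probe sets gave -0.16 and 1.11. The remaining 19 genes of this list were not called, and the median of all 21 was -0.08. Retreg3, a reticulon-type protein of endoplasmic reticulum turnover, rose 1.95-fold, from 5816 to 10785 up to 12440 to 18105 (log2 change 0.98, adjusted p = 0.0276). Arrdc3, an arrestin-like adaptor that directs membrane receptors to endosomes, fell 2.72-fold (log2 change -1.52, adjusted p = 0.0416). Its untreated values were 62801, 55200, 28165, 60239 and 57009 and its treated values 14271, 23499, 23827, 26934 and 8161. KKAy model replicate 3 was again the lowest untreated mouse and stood just above the treated range. The C57BL/6J mean was 80753.

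Lrp4, an LDL receptor relative that binds agrin and Wnt inhibitors, read 3190, 2434, 1656, 3199 and 2314 untreated and 5955, 5599, 6884, 6683 and 5987 treated. Treated mice were tightly grouped above all untreated mice, 2.43-fold on the means (log2 change 1.32 ± 0.21, adjusted p = 0.0101). Nrg4, a secreted ligand of the ErbB4 receptor, read 3863, 2238, 2717, 2035 and 1538 untreated and 7709, 5254, 8117, 8790 and 3833 treated. XKA-H replicate 5 and KKAy model replicate 1 touched, so the groups overlapped slightly. The rise was 2.72-fold (log2 change 1.45 ± 0.27, adjusted p = 0.0297, exact permutation p = 0.0159), and the second Nrg4 probe set gave 1.60 (unadjusted p = 0.000837). Fgf1, a fibroblast growth factor (PCR primers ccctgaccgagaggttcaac and gtcccttgtcccatccacg), had non-overlapping groups of 15238 to 22391 untreated and 23640 to 34805 treated, with a log2 change of 0.64 short of the threshold (adjusted p = 0.0706). Gnai1, an inhibitory G protein subunit (PCR primers ggtttacagacacgtccatcat and gcctgcatattctgggtagcat), had a log2 change of -0.87 (adjusted p = 0.11). Dtx4, an E3 ligase of the Deltex family linked to Notch, fell 2.26-fold (log2 change -1.19, adjusted p = 0.0183), and its second probe set gave -0.57.

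The lower genes also held structural and regulatory genes. Stmn1, which destabilises microtubules, had a narrow treated group of 10750, 11106, 10090, 11295 and 10571. The untreated mice read 21544, 16729, 25505, 19274 and 17039, all above it. The fall was 1.86-fold (log2 change -0.88 ± 0.12, adjusted p = 0.0047), and a dimmer second probe set gave 0.00. Chic1, a cysteine-rich membrane protein, fell 2.46-fold, from 5265 to 8025 down to 1967 to 3732 (log2 change -1.31, adjusted p = 0.00482). Tsc22d1, a leucine zipper protein induced by TGF-beta, fell 1.90-fold (log2 change -0.93, adjusted p = 0.028), and all 6 of its other probe sets were lower, the next brightest passing on its own at -0.99. Myom3, an M-band protein of muscle, fell 2.28-fold from 8713 to 11011 down to 3361 to 5751 (log2 change -1.21, adjusted p = 0.042), where the C57BL/6J mean was 635.3. Dnajc22, Nsmf, Smagp and Mrnip fell between 1.66-fold and 2.61-fold.

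The remaining higher genes were dim or little described. Gkn1, a gastric mucosal protein, was below the median probe set on every untreated array, with 188.8, 175.5, 101.7, 556 and 332.6, and read 1016, 751.6, 1460, 1359 and 1705 in treated mice. The groups did not overlap (log2 change 2.40 ± 0.45, adjusted p = 0.0297), but its second probe set gave 0.08. That set was the brighter one in untreated mice, with group means of 903.9 untreated and 809.1 treated. The set used had means of 270.9 and 1258, and 917.5 in C57BL/6J mice. It was chosen by brightness over all arrays, so its higher treated and C57BL/6J values entered the choice. A930033H14Rik rose 2.29-fold from 1700 to 2615 up to 3718 to 6467 (log2 change 1.17, adjusted p = 0.0429). Just beyond the threshold, 6 further genes came next by p. The groups of 9530002B09Rik, Eps8l2, Cdcp1, Bok and Kin did not overlap, with log2 changes of -3.19, -0.65, -1.09, -0.76 and 0.91 and adjusted p from 0.0527 to 0.056, and Anxa5 overlapped at -0.92 (adjusted p = 0.0649). The size of the 9530002B09Rik change is uncertain, since its group means of 602 and 78.4 were both below the median probe set.

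**Figure D3:**
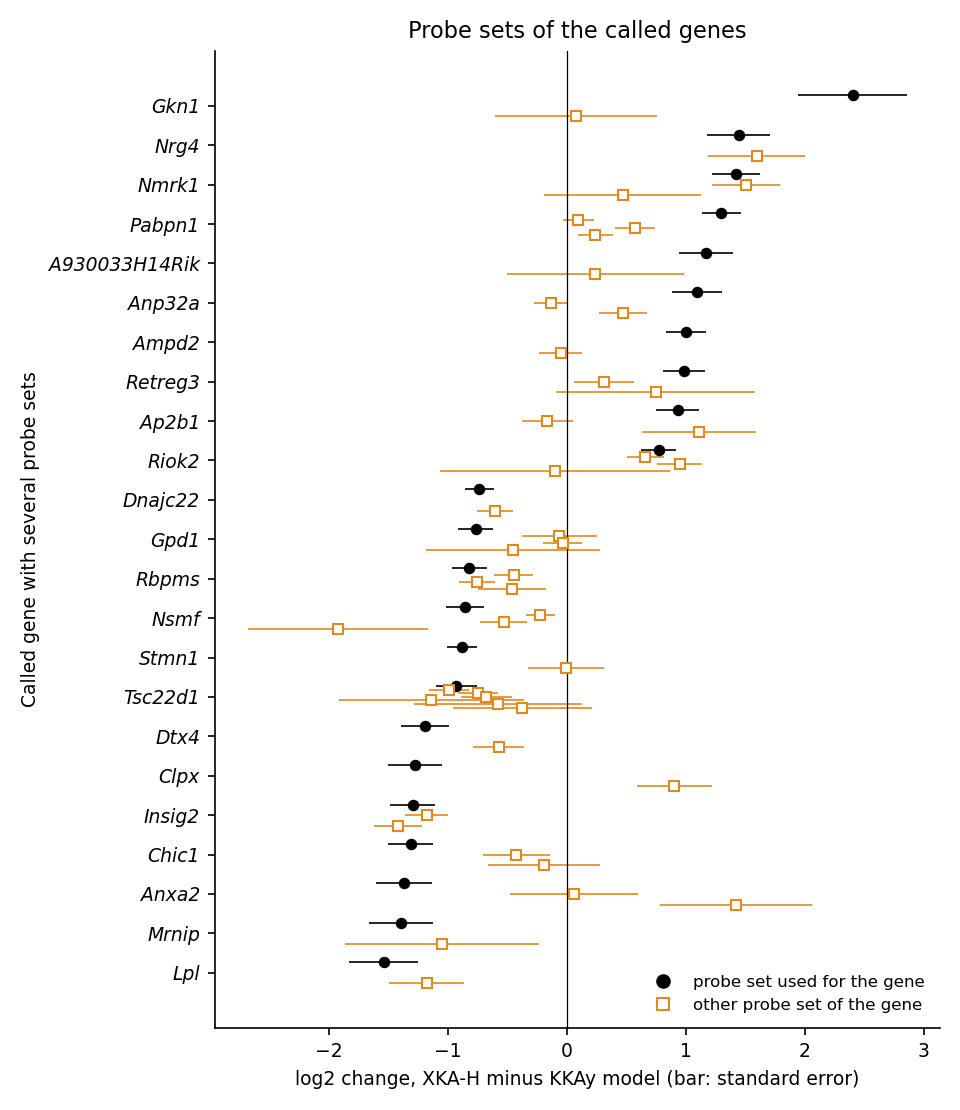
Log2 change with its standard error (horizontal axis) for each probe set of the 23 called genes that have several, black for the probe set used and orange for the others. Insig2, Nmrk1, Nrg4, Tsc22d1, Rbpms and Lpl each have another probe set close to the one used, but Nmrk1, Tsc22d1 and Rbpms also have sets nearer 0. Clpx and Anxa2 have a probe set on the opposite side with an unadjusted p under 0.05. The other 5 opposite probe sets (of Anxa2, Ampd2, Anp32a, Ap2b1 and Riok2) lie close to 0.

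Probe sets of a gene did not always move together, as the plot by probe set shows. Of the 32 called genes, 9 had 1 probe set and 23 had several, with 45 probe sets besides those used. Of these 45, 38 pointed the same way, 19 of them with an unadjusted p under 0.05, and 7 pointed the other way, 2 of them (Clpx and Anxa2) with an unadjusted p under 0.05. In 17 of the 23 genes all probe sets agreed in sign. The set used bore an x or s suffix, which marks possible matches to other transcripts, in 7 of the 32 called genes. Over all genes this was so for 9.26%. The 7 were Ampd2, Gkn1, Stmn1, Dnajc22, Tsc22d1, Nsmf and Rbpms. Averaging the probe sets of each gene left 5 of the 32 called, Elovl3, Insig2, Rab5c, Lrp4 and Pnpla7, of which Insig2 alone has several probe sets.

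Described by 55 lists of pathway and cell type genes, the treated livers showed no called gene in 43 lists. With 0.176% of all genes called, most lists of this size would hold none. The clock list leaned upward, with 8 of 23 members higher and 3 lower at an unadjusted p under 0.05, which 8.61% of all genes reached, and a median log2 change of 0.23. None of them passed the adjusted test. Per2, a repressor of the clock, read 5880, 5717, 3198, 3444 and 3629 untreated and 6949, 9071, 9379, 8088 and 7856 treated. It was the only member whose groups did not overlap (log2 change 0.96, adjusted p = 0.0878). Per1 and Per3 had log2 changes of 0.97 and 0.95, and the clock-driven genes Dbp, Usp2 and Noct had 0.80, 1.11 and 1.24 (adjusted p from 0.211 to 0.499). The activators Clock and Arntl pointed down at -0.60 and -0.91 (adjusted p = 0.235 and 0.373). The largest change in the list was that of Ciart, at 1.68 (adjusted p = 0.449). Bhlhe41 pointed down at -1.12 (adjusted p = 0.608), with both group means below 1000. With probe sets averaged, Arntl was at -0.09, since its second probe set had the opposite sign, and Per3 at 0.05, since 2 of its 5 other probe sets shared its sign, while Per2 and Clock were at 0.96 and -0.60. The hour of tissue collection is not in the labels, and its part in these values was not tested. The list median stayed between 0.23 and 0.29 under the other scalings and without both arrays that stood apart.

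**Figure D4:**
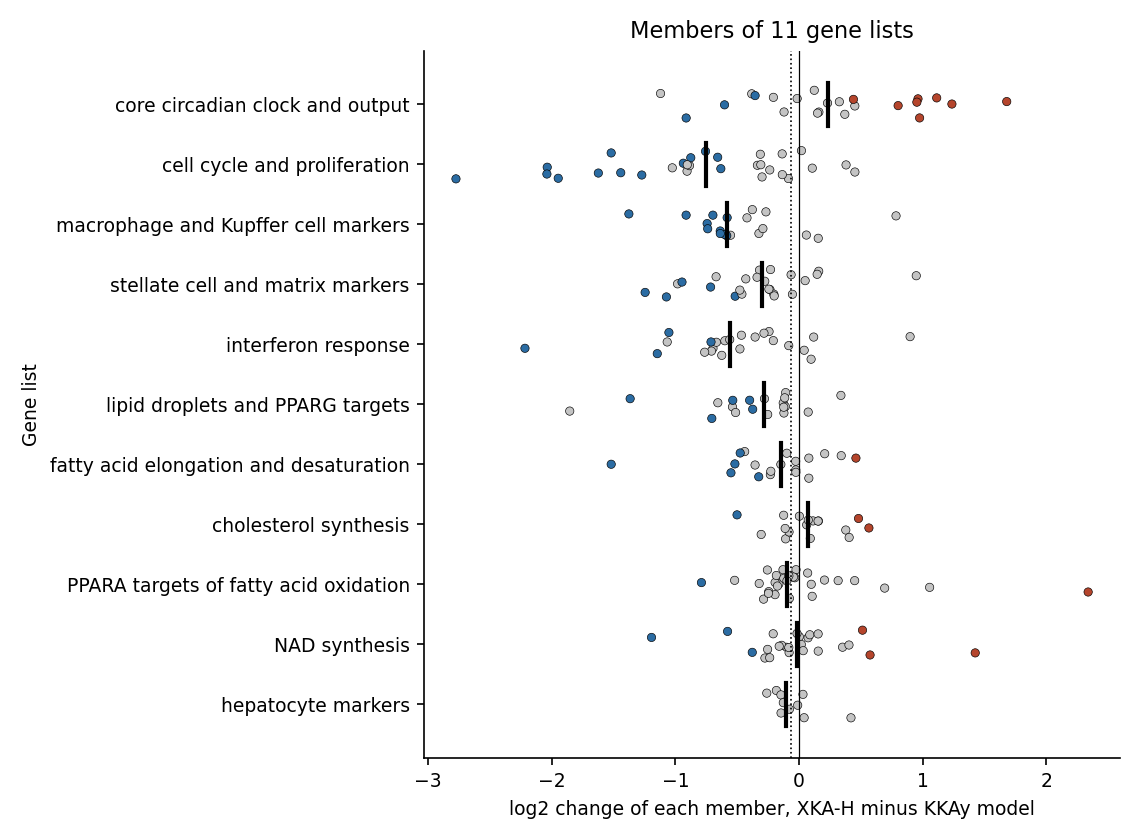
Log2 change of each member (points, horizontal axis) of 11 gene lists (rows), with the list median as a bar and the median of all genes, -0.06, as a dotted line. Red and blue mark members higher or lower at an unadjusted p under 0.05, and the clock list lies to the right while the cell cycle and macrophage lists lie to the left.

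The cell cycle list leaned downward, with 13 of 29 members lower and 0 higher at an unadjusted p under 0.05 (5.84% and 2.77% over all genes) and a median log2 change of -0.76. Relative to the KKAy model mean, the list mean was 0.256, -0.123, 0.378, 0.274 and -0.785 on the untreated arrays. On the treated arrays it ran from -1.145 to -0.46, so KKAy model replicate 5 lay within the treated range. No member passed the adjusted test. Cdc20, which activates the anaphase-promoting complex, came closest, with 4202, 3800, 2305, 3162 and 2294 untreated and 928.4, 767.3, 686.7, 2117 and 1328 treated. Its groups did not overlap (log2 change -1.52, adjusted p = 0.0649). Top2a, a topoisomerase of dividing cells, and Mki67, the proliferation marker, had log2 changes of -1.95 and -2.78 (adjusted p = 0.147 and 0.145), and the treated signal of both was below 1000 on all 5 arrays. With probe sets averaged, Cdc20 was at -0.42 and Top2a, whose other 2 probe sets both had the opposite sign, at -0.48, while Mki67 has 1 probe set. Mcm7, a subunit of the replicative helicase and brighter, ran from 7918 to 15034 untreated and from 5059 to 8132 treated (log2 change -0.66, adjusted p = 0.168), and -0.36 with its probe sets averaged. Cdkn1a, which inhibits cyclin-dependent kinases, was also among the lower members, with a log2 change of -2.04 (adjusted p = 0.397). The lower members were thus not all genes that promote division. Without both arrays that stood apart the list median was -0.60, with 7 members lower and 1 higher, and with probe sets averaged it was -0.48 with 8 lower.

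Macrophage and Kupffer cell markers leaned the same way. Of 19 measured, 10 were lower and 0 higher at an unadjusted p under 0.05 (5.84% and 2.77% over all genes), with a median log2 change of -0.58, and none passed the adjusted test. Clec4f, a lectin of Kupffer cells, read 27608, 17412, 32037, 48191 and 18482 untreated and 8942, 23418, 22387, 10023 and 12283 treated. The groups overlapped (log2 change -0.91, adjusted p = 0.273). The complement genes C1qa, C1qb and C1qc had log2 changes of -0.74, -0.64 and -0.60 (adjusted p from 0.245 to 0.363), and Cd68 and Csf1r had -0.70 and -0.59. Of the 19 markers, 3 were positive, among them Itgam, an integrin of myeloid cells, at 0.78 (adjusted p = 0.819) with both group means below 1000. The summed signal of the 19 markers ran from 293713 to 717924 untreated and from 229499 to 398867 treated. In whole liver, fewer cells of a type and less RNA per cell cannot be told apart. Without both arrays that stood apart the list median was -0.46, with 5 members lower and 1 higher. Matrix and stellate cell genes had 5 of 24 lower and 0 higher at an unadjusted p under 0.05 (5.84% and 2.77% over all genes), with a median of -0.30, and Col3a1, a fibrillar collagen, was at -0.95 (adjusted p = 0.15).

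**Figure D5:**
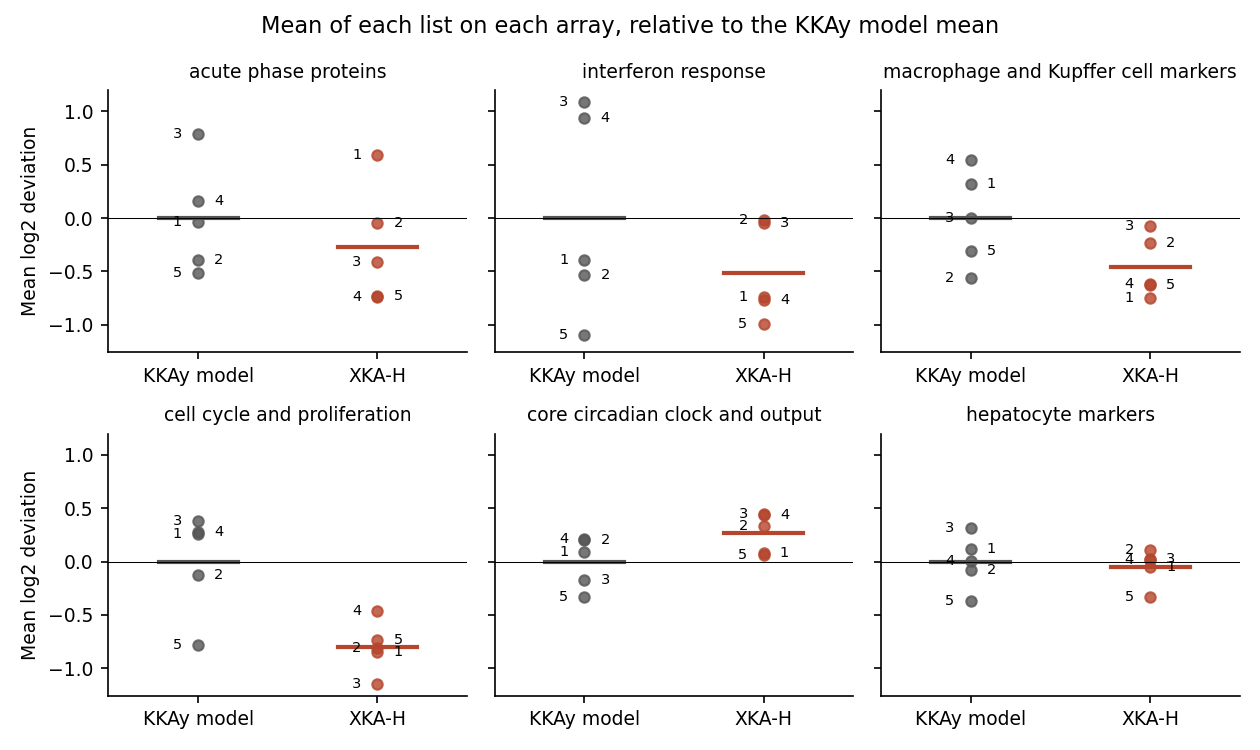
Mean log2 deviation of 6 gene lists on each array from the KKAy model mean, with a number for each replicate and a bar for each group mean. KKAy model replicate 3 and XKA-H replicate 1 are high in acute phase genes, KKAy model replicates 3 and 4 are high in interferon genes, and the hepatocyte list lies close to 0 in both groups.

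Single mice shaped the inflammatory lists, as the plot of list means by array shows. Interferon genes had a median log2 change of -0.56, and -0.19 when the pair of arrays that stood apart was left out. The interferon list mean was 1.09 and 0.94 above the group mean in KKAy model replicates 3 and 4 and -0.40, -0.54 and -1.09 in the other 3. Saa3, an acute phase gene, read 452975 in KKAy model replicate 3 and 15655 to 79405 in the other untreated mice, and 93509 in XKA-H replicate 1 against 14004 to 17142 in the other treated mice. Hepatocyte markers had no member of 10 with an unadjusted p under 0.05, and adipocyte markers had 1 of 9, against 8.61% over all genes. At that share, lists this short could well hold so few. The adipocyte marker was Retn, which encodes resistin, at 1.47 (adjusted p = 0.456), while the other 8 were negative and the list's median was -0.37. Among the latter, Adipoq, the fat-cell hormone adiponectin, was below 1000 on all 10 arrays, from 57.6 to 754.5. The adipocyte list's summed signal ran from 523445 to 895270 untreated and from 202424 to 817167 treated.

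Further genes led their pathway lists without passing. Pfkp, a phosphofructokinase of glycolysis, had non-overlapping groups and a log2 change of -1.01 (adjusted p = 0.133). Dio1, which activates thyroid hormone, ran from 149594 to 228199 untreated and from 106310 to 143637 treated (log2 change -0.66, adjusted p = 0.133). Gclc, the rate-limiting enzyme of glutathione synthesis, had non-overlapping groups as well, at -0.65 (adjusted p = 0.211). Chka, a choline kinase of phosphatidylcholine synthesis, was at -1.22 (adjusted p = 0.125) with a high untreated value of 12645 in KKAy model replicate 3. Igfbp5, which binds insulin-like growth factors, was at 1.20 with non-overlapping groups (adjusted p = 0.153). Averaging probe sets brought Igfbp5, whose second probe set had the opposite sign, to 0.39, and Pfkp and Chka to -0.59 and -0.38. No gene of the insulin, AMPK, mTOR, glycogen, glycolysis, bile acid or P450 lists was called. With 0.176% of all genes called, lists of this size would mostly hold none.

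The 32 calls depended on single mice. Leaving out 1 KKAy array at a time gave between 11 calls (without XKA-H replicate 3) and 54 (without XKA-H replicate 1). The count was 14, 16 and 12 without KKAy model replicates 2, 3 and 4, and 17 without XKA-H replicate 4 and likewise without XKA-H replicate 5. With the 2 arrays that stood apart in acute phase genes both left out, 17 of the 32 remained among 25 calls. All 32 kept their direction in each of the 10 single omissions.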

How the data were processed

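RNA from 1 liver per mouse was hybridised to Affymetrix Mouse Genome 430 2.0 arrays. The deposited intensity values are on a linear scale, and the authors describe scaling to a median of 1000. The deposited medians differed, so this scaling was applied here. The probe summary and background step are not given in the sources used here. Scan dates were not used here.

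Of 45101 probe sets, 34958 had 1 gene symbol, 932 several and 9211 none, and 13 controls were left out. The brightest probe set over the 15 arrays stood for each of 18193 genes. Log2 signals of all 15 arrays entered a single limma fit (version 3.58.1, R 4.3.3) that let the prior variance follow intensity. Tests were two-sided with Benjamini-Hochberg adjustment. The fit was tested on simulated data. The median standard error was 0.28. Array number limits the precision. Each p-value sets the difference between the groups against a spread between mice, estimated from all 15 arrays and moderated across genes.

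The named genes were every called gene, the 3 PCR genes, the next 6 by p and some of the 3 largest changes in a list. Not all of these list leaders are described, and those described were picked with their values known. Per2, Per3, Clock, Arntl, Dbp, Usp2, Cdc20, Top2a, Mcm7, C1qa, C1qb, C1qc, Cd68, Csf1r, Nampt, Agpat2 and Col3a1 were added after their values were seen. Members and lists were chosen with earlier results of these data known. RefSeq promoters were read from GRCm38.p6 and searched on both strands with Python 3.11.15.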

Additional observations from a re-analysis of the deposited data

Results flagged for a closer look

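Among 83 genes examined in both groups of 5, a highest or lowest array stood far from its group, by a gap over the range above 0.71, in 14 cases. Chance gives about 1 in 20 groups. Low arrays were KKAy model replicate 5 for Anp32a (8213), KKAy model replicate 3 for Arrdc3 (28165), XKA-H replicate 5 for Pdk4 (2179) and Clock (5409) and XKA-H replicate 1 for Gclc (95447). High arrays were KKAy model replicate 4 for Gnai1 (27571), XKA-H replicate 2 for Eps8l2 (8463), KKAy model replicate 3 for Cdcp1 (12031), Retn (1311) and Saa3 (452975), KKAy model replicate 1 for Slc22a7 (118506) and Per3 (5186), XKA-H replicate 1 for Saa3 (93509) and XKA-H replicate 3 for Adipoq (754.5).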

How the results depend on the processing

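The count of 32 genes moved with the setting. It was 63 with values as deposited and 113 with quantile normalization, and both held all 32 genes. It was 6 with the mean of probe sets, 19 with the 10 KKAy arrays alone, 4 without the intensity trend and 52 with array weights. The Dunnett comparison gave 944 genes unadjusted and 0 after Benjamini-Hochberg adjustment, against 1567 at an unadjusted p under 0.05 in limma. Leaving out 1 array gave 11 to 54. Anxa2 reversed with the mean of probe sets, to a log2 change of 0.0401, where its dimmer probe sets count equally. Deviations of same-numbered arrays had correlations between -0.0447 and 0.092, the highest for the arrays numbered 5. Those of differently numbered arrays lay between -0.0757 and 0.127. The replicate block gave 8 calls, 7 of them among the 32. Dropping dim genes gave 45 calls of 11660, testing each probe set gave 41 and a pseudocount of 100 gave 33. Outside Anxa2, no called gene changed direction under any alternative run. The causes of these shifts were not tested.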
